A study of Mus musculus with 36 samples.

Results

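The response to OMV-SIRP was compared between monocytes and granulocyte-macrophage progenitors (GMP) of mouse bone marrow, by asking of every gene whether it changed by a different amount in the monocytes. The measure is the monocyte change less the GMP change, called the interaction here: the difference between OMV-SIRP and phosphate-buffered saline (PBS) in monocytes minus the same difference in GMP, on the log2(FPKM + 1) scale. FPKM is the number of fragments per kilobase of gene length, adjusted for depth. The comparison takes 12 of the 36 libraries of the series, 3 in each of 4 groups, chosen by their labels and by no measured value. The series sequenced RNA of bone marrow GMP and monocytes and of macrophages from 2 tumour models after PBS, OMV-SIRP or OMV-SIRP-G. Its title describes engineered outer membrane vesicle (OMV) nanohybrids, particles based on the membrane that bacteria shed, for acting on tumour-associated macrophages from the marrow to the tumour. The labels give all 4 groups as wild type (WT) bone marrow cells that differ in population (GMP or monocytes) and in treatment (PBS or OMV-SIRP), and they do not spell out OMV-SIRP. Age, sex, dose and time are in none of the sources used, nor is it stated whether the marrow donors bore tumours. The design text says that samples were pooled, and whether the 3 libraries within a group come from different mice is not stated. P-values therefore rest on the spread among these libraries alone, which may be technical.

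GMP are dividing marrow progenitors that give rise to granulocytes and monocytes, and they hold large amounts of messenger RNA for the enzymes of primary granules. Monocytes arise from them, leave the marrow for blood and tissue, and can become macrophages. Bacterial vesicles carry lipopolysaccharide and other ligands of Toll-like receptors, which in myeloid cells act on NF-kB and interferon target genes, while the factor HIF acts on genes of oxygen sensing and glycolysis. Sirpa is an inhibitory receptor of myeloid cells, and Cd47 is its ligand.

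RefSeq promoters of build GRCm38.p6 were searched over the 250 bases before the start, on both strands, for GAAA followed after any 2 bases by GAAA, the paired core bound by interferon-activated factors, and for ACGTG, a core of the HIF site. These 6 windows are shown because their genes are members of the interferon, hypoxia and glycolysis groups whose interaction was lower. Capitals mark the motif or its reverse complement, and each sequence reads 5′ to 3′ on the strand of the gene.
Rsad2, chr12:26456543-26456592, minus strand: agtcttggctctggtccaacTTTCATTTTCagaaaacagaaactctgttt
Isg15, chr4:156200867-156200916, minus strand: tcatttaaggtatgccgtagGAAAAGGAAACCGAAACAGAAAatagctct
Ifit1, chr19:34640765-34640814, plus strand: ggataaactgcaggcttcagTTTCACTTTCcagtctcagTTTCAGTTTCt
Ddit4, chr10:59951933-59951977, minus strand: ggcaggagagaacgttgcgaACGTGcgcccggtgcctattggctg
Bnip3, chr7:138909590-138909634, minus strand: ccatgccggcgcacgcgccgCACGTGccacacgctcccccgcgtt
Pgk1, chrX:106186930-106186974, plus strand: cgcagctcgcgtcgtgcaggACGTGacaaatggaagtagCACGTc

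The paired GAAA core stood in the promoter of 9 of the 20 interferon-stimulated genes that matched the promoter table (45%), of 3.55% of all genes tested that matched, and of 2.98% of the 32851 promoters in the table. ACGTG stood in 12 of 15 matched hypoxia-responsive genes (80%), in 9 of 16 glycolysis genes (56.2%), in 25.8% of the matched genes tested and in 16.6% of all promoters. Its reverse complement CACGT overlaps it by 4 bases, so CACGTG, as in the Bnip3 window, counts on both strands. Of the genes described below that rose in GMP and fell in monocytes, 43 of 136 matched held ACGTG (31.6%) and 1 the paired GAAA core (0.735%). Of those that did the reverse, 5 of 38 held ACGTG (13.2%) and none the paired core. A match describes the letters of the window and shows no binding.

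The libraries of the comparison held between 15218182 and 19822660 reads assigned to genes, and 1 of them stood apart. Replicate 2 of the monocyte PBS group had an FPKM sum of 538012, against 284638 to 364610 in the others, and its log2(FPKM + 1) values correlated with its replicates at 0.932 and 0.934, where the other pairs of a group reached 0.981 to 0.989. Against the mean of its replicates it was higher by a median of 0.67 (log2) in genes over 1000 and up to 2000 bases and lower by 0.46 in genes over 6000 bases. The 22 genes of a ribosomal protein list summed to 37920 FPKM in it and to 14020 and 14370 in the other monocyte PBS libraries. The median SD of log2 values was 0.297 in the monocyte PBS group and 0.0741 to 0.108 in the other groups. The leading counts are therefore given with and without this library.

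**Figure D1:**
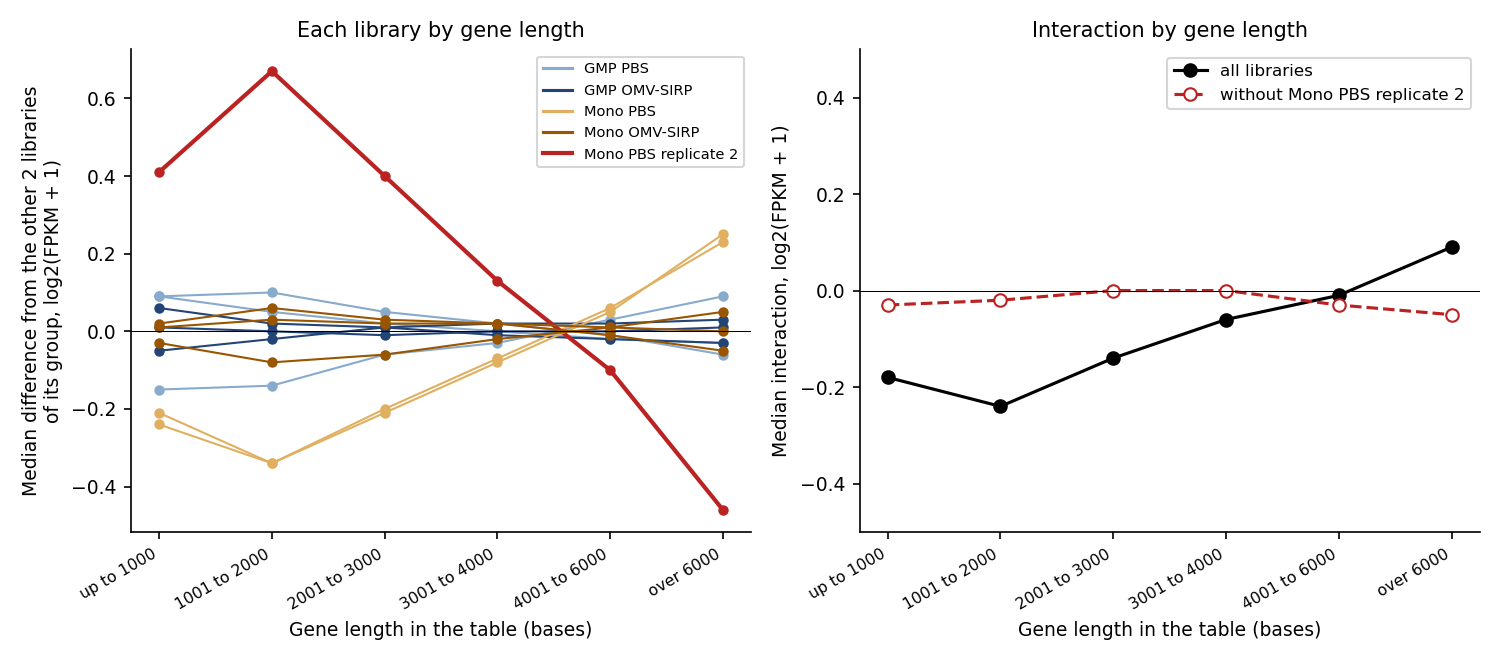
Left, the median difference of each library from the other 2 libraries of its group, log2(FPKM + 1), over 6 classes of gene length in bases; right, the median interaction in the same classes with all libraries and without monocyte PBS replicate 2. Replicate 2 (red) ranges from 0.67 to -0.46, and the slope of the interaction over length, from -0.24 to 0.09, shrinks to between -0.05 and 0 without it.

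The labels were set against marker genes. Mpo, the myeloperoxidase of primary granules, stood at 1452 to 1619 FPKM in the GMP PBS libraries and 149 to 266 in the monocyte PBS libraries, and the receptor Kit at 22.4 to 24.7 against 0.728 to 1.30. Ccr2, the receptor that lets monocytes leave the marrow, was at 49.5 to 55.5 in GMP and 193 to 264 in monocytes, Csf1r at 76.6 to 80.8 against 292 to 306, and Fn1 at 8.13 to 10.6 against 221 to 545. Ly6c2 did not separate the populations, at 528 to 644 in GMP and 400 to 830 in monocytes, and Cd34 was at 14.9 to 18 against 10.9 to 13.1, apart by a small margin. The GMP libraries also held much RNA of other granulocytes, such as eosinophil Prg2 (2582 to 3558 FPKM) and neutrophil Ltf (1036 to 1130). In bulk RNA, fewer cells of a type and less RNA per cell cannot be told apart.

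Of 12871 genes tested, 2289 had an interaction with a limma adjusted p under 0.05 (17.8%). It was positive for 913, called higher here (7.09%), and negative for 1376, called lower (10.7%). These words compare changes and not levels. Under PBS, monocytes lay below GMP for 651 of the higher genes and above GMP for 972 of the lower genes. The strongest lower interactions were those of Nos2, Arg1, Mpo and Retnlg, and the strongest higher ones those of Mrc1, Tlr9, Fos, Lpar5 and Saa3 among the named genes. An interaction of at least 1 on the log2 scale was reached by 125 higher (0.971%) and 365 lower genes (2.84%). The median interaction over all genes tested was -0.04. Taken alone, GMP had 1304 genes that rose (10.1%) and 940 that fell (7.3%), and monocytes had 1092 that changed (8.48%), 389 that rose (3.02%) and 703 that fell (5.46%). Without monocyte PBS replicate 2 the monocyte count was 3626, above the 2244 of GMP, with 1504 that rose (11.8%) and 2122 that fell (16.7%).

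Without monocyte PBS replicate 2, 3964 of 12740 genes had an interaction past the threshold (31.1%), 1621 higher and 2343 lower. They included 2212 of the 2289, each with the same sign. The split of directions depends on the scaling of the libraries: scaled by total reads, 740 were lower (5.75%) and 1915 higher (14.9%), so that 72.1% of calls were higher instead of 39.9%, and the median of all genes moved to 0.17.

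Among the 2289 genes, 230 changed in opposite directions in the populations (1.79% of genes tested), 85 changed in the same direction by different amounts, 759 passed the test in GMP only, 580 in monocytes only and 635 in neither. The order turned without monocyte PBS replicate 2, with 691 in GMP only, 1942 in monocytes only and 598 in neither. Of the opposed genes, 185 rose in GMP and fell in monocytes, and 45 did the reverse. Their number was 567 without monocyte PBS replicate 2 (424 and 143) and 37 in a fit of the 12 libraries alone (34 and 3). With total-read scaling the balance turned, with 90 rising in GMP and falling in monocytes and 141 the reverse. The populations differ already under PBS, and the interaction shares those libraries: the gap between them narrowed with OMV-SIRP in 59.4% of the higher genes, 57.3% of the lower genes and 56.7% of the genes with no call.

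**Figure D2:**
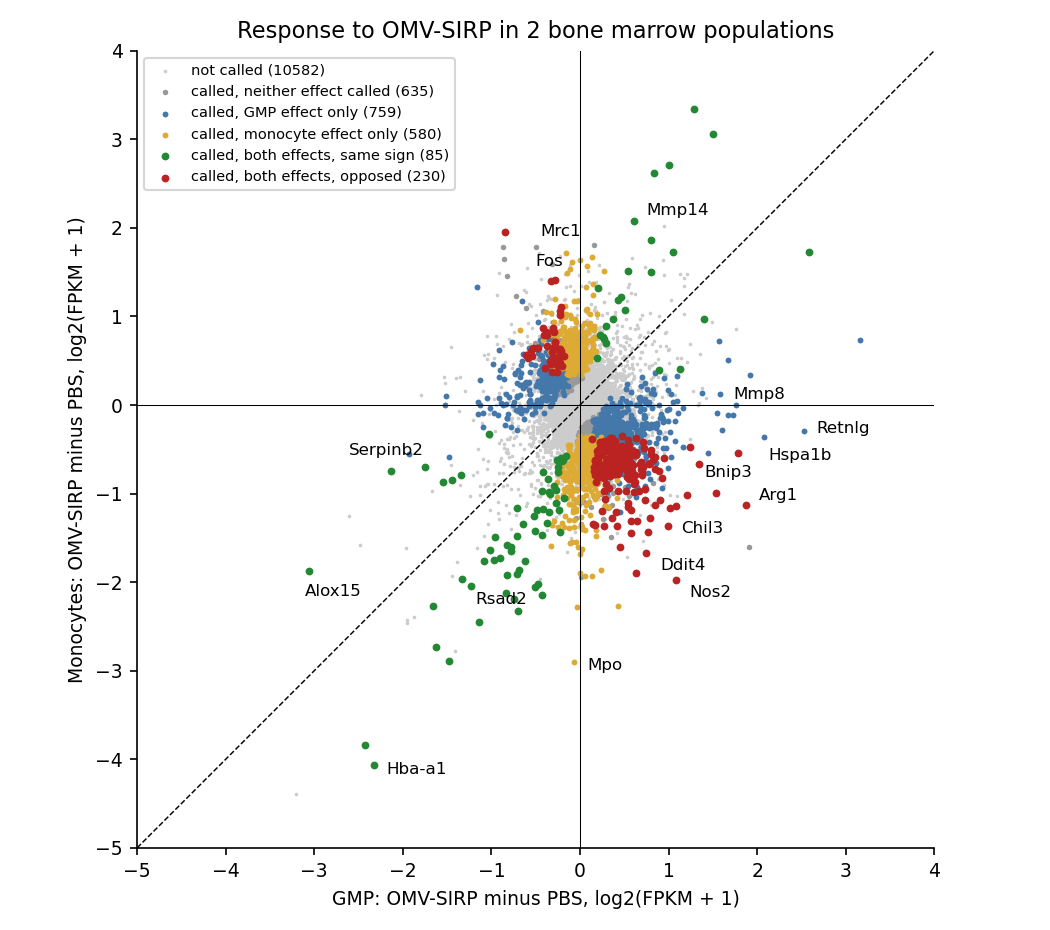
Each point is a gene: the x axis is its change with OMV-SIRP in GMP and the y axis its change in monocytes, both log2(FPKM + 1), and distance from the dashed diagonal is the interaction. Colours give the class of the 2289 called genes; the 230 opposed genes (red) lie in the upper left and lower right parts, with 185 of them at lower right.

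Most genes of oxygen sensing and sugar use rose in GMP, and 9 of the 18 hypoxia genes fell in monocytes (15 without monocyte PBS replicate 2). The hypoxia list had 18 members tested, of which 16 had a lower interaction and none a higher one, with a median of -1.28 beside -0.04 over all genes. In GMP 17 rose (median 0.61), and in monocytes 9 fell (median -0.59). The 9 that fell in monocytes all rose in GMP: Ddit4, P4ha2, Ero1l, Bnip3, Ndrg1, Egln1, P4ha1, Bnip3l and Mxi1. All 18 had a lower interaction without monocyte PBS replicate 2 (18.4% of genes tested), and 14 with total-read scaling (5.75%). Among all genes tested 10.7% were lower and 7.09% higher with all libraries, shares to set beside the counts of each list below. The higher share was 12.7% without monocyte PBS replicate 2 and 14.9% with total-read scaling.

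Ddit4, an inhibitor of the growth kinase mTORC1 (chr10:59949669-59951834), stood in replicate order at 16.6, 18.4 and 17.4 FPKM in GMP after PBS and at 28.5, 27.8 and 33.3 after OMV-SIRP. In monocytes it went from 126, 148 and 131 after PBS to 39.8, 39.3 and 46.8 after OMV-SIRP. The groups did not overlap in either population, and after OMV-SIRP the lowest monocyte library was still above every GMP library. The GMP change was 0.74 ± 0.07 (SE), the monocyte change -1.67 ± 0.12, and the interaction -2.41 ± 0.13 (adjusted p = 6.29e-08). Bnip3, a mitochondrial protein of mitophagy, rose in GMP from 48.9, 56 and 53.4 FPKM to 101, 98.9 and 96.2. In monocytes it fell from 256, 276 and 266 to 146, 171 and 160. The interaction of Bnip3 was -1.63 ± 0.10 (adjusted p = 1.89e-07), and its levels in the populations thus lay closer together after treatment. The prolyl hydroxylases that mark HIF for removal, Egln1 (-1.23) and Egln3 (-1.33), had interactions of similar size. Hif1a itself was not past the threshold (-0.30), nor was Car9 (-0.31).

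Most genes of the glycolysis list rose in GMP too. Of 16 members, 14 had a lower interaction (median -0.87), 14 rose in GMP (median 0.56), and Slc2a1 and Pfkp fell in monocytes. Without monocyte PBS replicate 2 the lower interactions numbered 15 and in monocytes 6 fell and 1 rose, and with total-read scaling 10 were lower. Slc2a1, the main glucose transporter, stood at 21.3, 21.4 and 23 FPKM in GMP after PBS and 40.9, 38.5 and 41.2 after OMV-SIRP. The monocyte libraries held 208, 220 and 206 after PBS and 142, 138 and 141 after OMV-SIRP, without overlap. Its interaction was -1.43 ± 0.09 (adjusted p = 9.28e-08). Pfkp, a phosphofructokinase subunit, rose in GMP from 12.7, 13.2 and 12.9 to 21, 22.1 and 21.4 and fell in monocytes from 51.5, 48.8 and 52 to 33.5, 30.1 and 32.8 (interaction -1.34 ± 0.08). Pgk1, Eno1, Ldha and Pkm, enzymes of the later steps, had interactions of -1.06, -0.89, -0.84 and -0.82, with a rise in GMP and no monocyte change past the threshold.

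**Figure D3:**
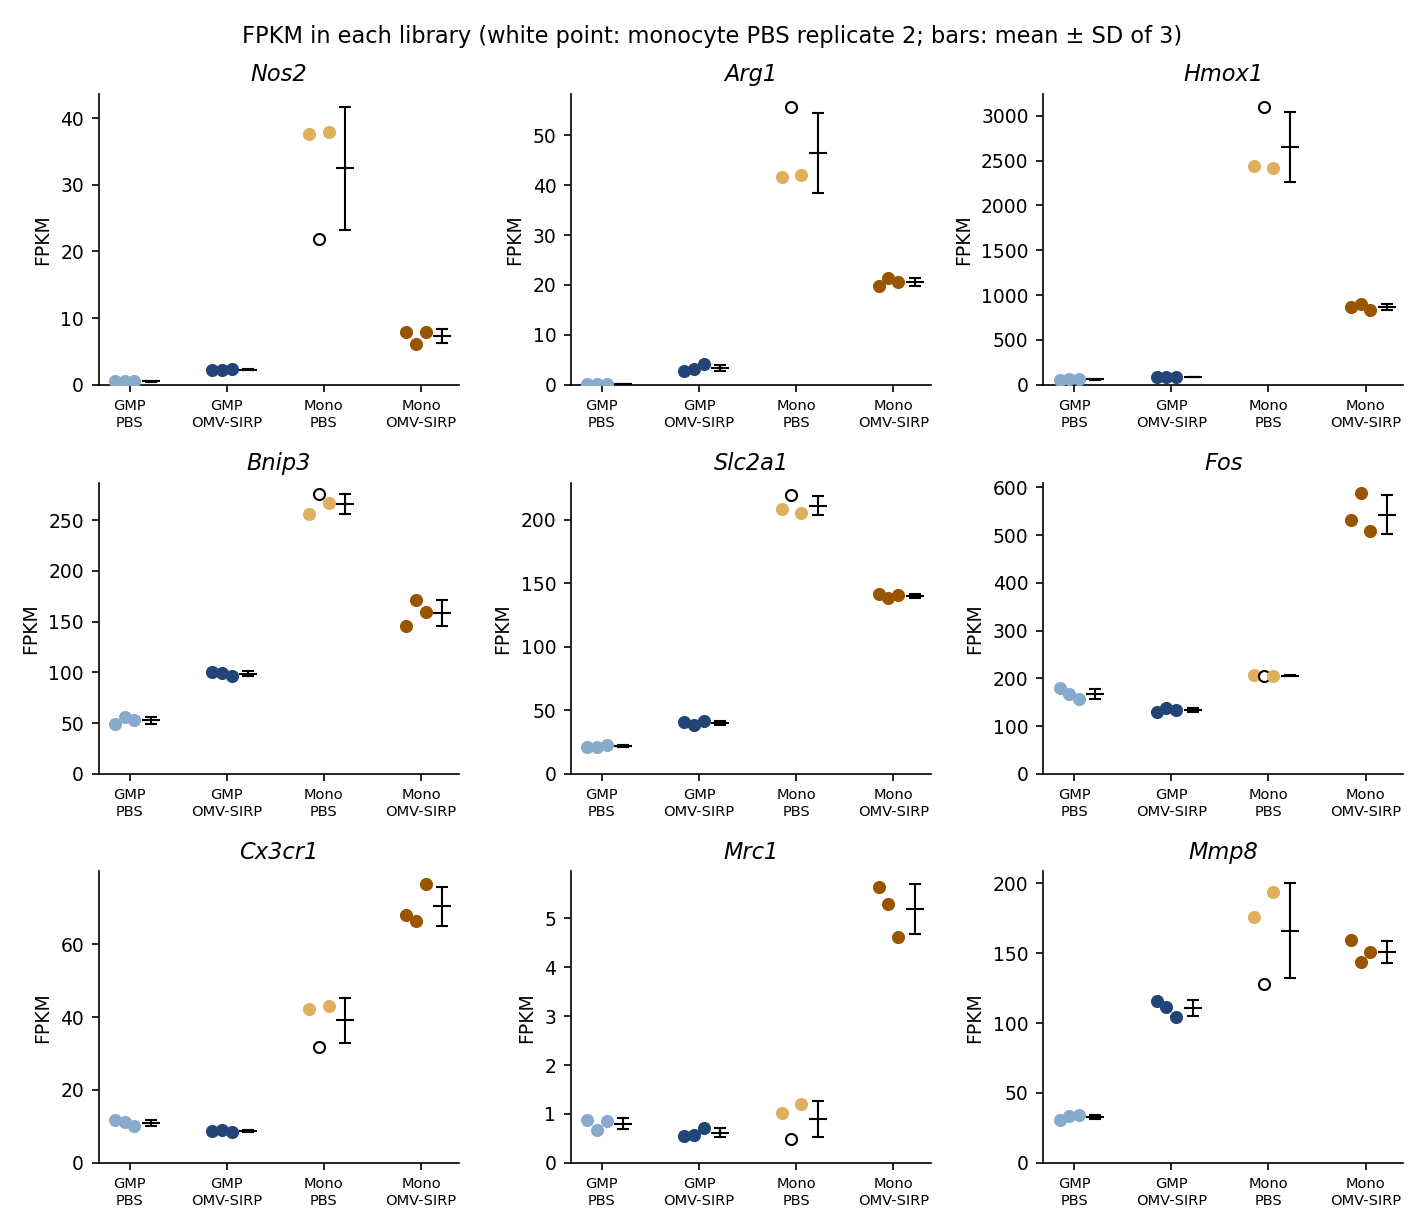
FPKM of 9 genes in each of the 12 libraries, on linear axes from 0; points are libraries, the white point is monocyte PBS replicate 2, and the bars are the mean ± SD of 3. Nos2, Arg1, Bnip3 and Slc2a1 rise in GMP and fall in monocytes, whereas Fos and Cx3cr1 do the reverse.

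Nos2, the inducible nitric oxide synthase (chr11:78920787-78960254), had the lowest interaction of the named genes. It stood at 0.494, 0.513 and 0.624 FPKM in GMP after PBS and 2.25, 2.18 and 2.39 after OMV-SIRP. In monocytes the PBS libraries held 37.6, 21.8 and 37.9 and the OMV-SIRP libraries 7.84, 6.10 and 7.98, so the groups did not overlap. Nos2 rose by 1.09 ± 0.08 in GMP and fell by 1.98 on the log2 scale (SE 0.22) in monocytes, an interaction of -3.06 ± 0.24 (adjusted p = 1.2e-06). Arg1, arginase 1, which uses the same substrate (chr10:24915221-24927484), changed in the same directions: 0.239, 0.102 and 0.184 became 2.80, 3.16 and 4.08 in GMP, and 41.7, 55.6 and 42 became 19.7, 21.4 and 20.7 in monocytes. Its interaction of -3.0 ± 0.17 (adjusted p = 6.81e-08) depends in size on the pseudocount, at -4.82 with 0.1 and -1.68 with 5; Nos2 is at -1.97 with 5.

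Hmox1, the haem oxygenase that breaks down haem, was among the most abundant of the opposed genes. GMP rose from 57.4, 60.7 and 66.9 FPKM to 83.2, 86 and 83.9, and monocytes fell from 2438, 3096 and 2414 to 872, 895 and 833. The interaction was -2.05 ± 0.14 (adjusted p = 3.54e-07). Nqo1, another target of the stress factor NRF2, went the other way: it fell in GMP from 4.56, 4.81 and 5.21 to 2.13, 2.19 and 2.0, and the monocyte libraries held 1.88, 3.34 and 1.89 after PBS and 3.93, 3.76 and 4.59 after OMV-SIRP. Its interaction was 1.53 ± 0.18. The iron and NRF2 list held 2 higher and 2 lower members of 14, beside 7.09% and 10.7% of all genes tested. With total-read scaling it held 4 and 1, beside 14.9% and 5.75%. In monocytes, Hmox1 moved with haemoglobin RNA: the 16 genes of the erythroid list summed to 155, 434 and 149 FPKM after PBS, the highest in replicate 2, and to 17.3 to 18.8 after OMV-SIRP. In GMP that sum fell as well, from between 91.6 and 109 to between 49.9 and 53.8, while Hmox1 rose. Hba-a1, which shares reads with its near-identical copy Hba-a2, had an interaction of -1.74 ± 0.53 that was lost without any of 7 libraries and was -1.15 without monocyte PBS replicate 2. The part of red-cell RNA in the Hmox1 result was not tested.

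Heat-shock genes Hspa1a and Hspa1b, inducible chaperones whose near-identical copies make the split of reads uncertain, had interactions of -2.32 ± 0.13 and -2.44 ± 0.12. In GMP Hspa1b rose from 0.645, 0.625 and 0.543 FPKM to 6.06, 5.76 and 5.49. Monocytes held 15.7, 13.4 and 15 after PBS and 10.3, 11.5 and 11.8 after OMV-SIRP, a change not past the threshold with all libraries (-0.36, adjusted p = 0.057). Of the 12 chaperone genes tested 4 had a lower interaction, the others being Hspa8 (-0.74) and Hsp90aa1 (-0.48), and with total-read scaling 3 were lower and 2 higher.

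Most interferon-stimulated genes fell in both populations, and their called interactions were all lower. Of 29 tested, 19 had a lower interaction and none a higher one, with a median of -0.76. In GMP 22 fell (median -0.60), and in monocytes 25 fell (median -1.42). The lower interactions numbered 24 of 28 without monocyte PBS replicate 2 and 13 with total-read scaling. Rsad2 (viperin, which blocks viral replication; chr12:26442746-26456452) went from 2.49, 2.35 and 2.65 FPKM to 1.69, 1.57 and 1.52 in GMP. In monocytes it went from 8.91, 6.26 and 9.51 to 1.05, 1.02 and 1.09, from above every GMP library to below every one. The interaction was -1.72 ± 0.16 (adjusted p = 4.52e-06). Ifit2, which binds viral RNA, showed no GMP change past the threshold: GMP held 4.89, 5.21 and 6.53 after PBS and 5.60, 5.43 and 5.19 after OMV-SIRP. Monocytes fell from 7.84, 5.30 and 8.95 to 1.83, 1.84 and 1.44 (interaction -1.58 ± 0.20, adjusted p = 0.000103). Isg15 (-1.63), the factor Irf7 (-1.19), Ifit1 (-1.19) and Usp18 (-1.09) fell in both populations. Ifit3 (-1.14) did so too, but shares reads with Ifit3b. Oas1a, Oas2, Mx1 and Trim30a also fell in both, with interactions of -0.29 to -0.53 that were not past the threshold.

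Irf1 and Stat2, factors that carry the interferon signal, fell in monocytes. Irf1 rose in GMP from between 13.5 and 14 to between 17.2 and 18.7 and fell in monocytes from between 31.4 and 43.1 to between 23.1 and 25.2 (interaction -0.89 ± 0.13). Stat2 had an interaction of -0.78, and its change in GMP (-0.26) was not past the threshold (limma adjusted p = 0.0503). With total-read scaling the Stat2 interaction was not past the threshold either (-0.52, adjusted p = 0.166). Irf5 (0.50), Ifngr1 (0.39) and Socs3 (0.38) were the 3 higher interactions among 17 receptors, STATs and IRFs, where 5 were higher and 2 lower with total-read scaling. The guanylate-binding proteins and IRG GTPases, interferon gamma targets that attack vacuoles of pathogens, held 6 lower members of 10 (4 with total-read scaling), among them Gbp2 (-0.84), Gbp3 (-0.70, not past the threshold with total-read scaling, -0.45, adjusted p = 0.0565), Igtp (-0.78) and Gbp5 (-0.78).

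Of 13 genes of MHC class I and peptide loading 6 had a lower interaction and none a higher one, with a median of -0.70, and 7 did so without monocyte PBS replicate 2, where the median was -0.35, and 3 with total-read scaling. Tap1, the peptide transporter, rose in GMP from 32.2, 31.4 and 34.1 FPKM to 39.2, 38 and 37 and fell in monocytes from 68.5, 78.1 and 64.8 to 39, 36.8 and 43.2 (interaction -1.03 ± 0.12, adjusted p = 3.63e-05). H2-Q7, whose reads can be shared with other H2-Q genes, had an interaction of -1.68 ± 0.20 and was opposed as well. Of the 10 genes of class II (median -0.07), H2-Aa (0.68) and the master regulator Ciita (0.83 ± 0.16) had higher interactions and H2-Ob (-0.50 ± 0.11) a lower one, lost with total-read scaling (-0.31, adjusted p = 0.0635). The class II counts were 5 higher and 1 lower without monocyte PBS replicate 2, and 3 and none with total-read scaling. Ciita stood at 0.206, 0.152 and 0.458 FPKM in monocytes after PBS and 1.64, 1.15 and 1.38 after OMV-SIRP, and at 0.123 to 0.235 in every GMP library.

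Cell cycle genes rose in GMP and fell, where they changed, in monocytes. Of 28 tested, 19 had a lower interaction and none a higher one (median -0.72). In GMP 19 rose (median 0.42), in monocytes 8 fell (median -0.34), and 7 were opposed. Without monocyte PBS replicate 2, 20 were lower, and with total-read scaling 15 were lower and 1 higher. Bub1, a kinase of the spindle checkpoint, rose in GMP from 9.40, 9.15 and 8.96 FPKM to 17.4, 16.1 and 16.6. In monocytes it fell from 15, 12.3 and 15.4 to 9.73, 9.17 and 9.22, so that the order of the populations turned. The interaction was -1.35 ± 0.12 (adjusted p = 3.08e-06). Rrm2, a subunit of ribonucleotide reductase, rose in GMP from 40.2, 41.9 and 43 to 62.4, 61.5 and 67.1 and fell in monocytes from 14.7, 16.8 and 16.6 to 8.81, 9.69 and 10.4 (-1.28 ± 0.12). The mitotic genes Cdk1 (-1.48), Aurka (-1.27) and Ccna2 (-1.21) were opposed too. Of the MCM helicase genes, which license replication, Mcm7 had a lower interaction (-1.0), and Mcm2 to Mcm6 were not past the threshold (-0.27 to 0.09).

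Primary granule genes, made at the GMP stage, included none that fell in GMP and 5 of 10 that fell in monocytes, and those 5 had a lower interaction (list median -1.04), with total-read scaling too, where 1 member was higher. Mpo (chr11:87793581-87804413) stood at 1470, 1452 and 1619 FPKM in GMP after PBS and 1466, 1449 and 1429 after OMV-SIRP. Monocytes fell from 154, 266 and 149 to 22.2, 22.1 and 26.7. The monocyte fall was -2.90 ± 0.21 and the interaction -2.84 ± 0.24 (adjusted p = 2.39e-06). Elane (-1.98), Nkg7 (-1.90 ± 0.31), Prss57 (-1.20) and Ms4a3 (-1.14) followed the same course. The progenitor factor Myb also fell in monocytes, from 4.36, 3.19 and 3.95 to 1.60, 1.52 and 1.25, and stood at 40.6 to 48.2 in GMP (interaction -0.89 ± 0.13). Cd34, in contrast, rose in monocytes from 11.4, 13.1 and 10.9 to 20, 18.2 and 20.7 (0.54 ± 0.13).

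Most secondary granule and mature neutrophil genes rose in GMP, and 5 rose in monocytes. Of 24 tested, 16 had a lower interaction and none a higher one (median -0.90), 21 rose in GMP (median 0.84), and in monocytes 5 rose and 2 fell (7 and 4 without monocyte PBS replicate 2). Cxcr2, Stfa3, Padi4 and Fpr2 rose in both populations, with no interaction past the threshold. The same number, 16, was lower without monocyte PBS replicate 2, and 14 with total-read scaling. Mmp8, neutrophil collagenase, rose in GMP from 30.9, 33.1 and 34.2 FPKM to 116, 112 and 105. Monocytes held 176, 128 and 194 after PBS and 159, 143 and 151 after OMV-SIRP, with overlap (interaction -1.84 ± 0.16, adjusted p = 3.89e-06). Retnlg, a resistin-like protein of neutrophils, rose in GMP from 63.6, 89.2 and 94.3 to 468, 474 and 475, while monocytes held 38.7, 112 and 46.5 against 43.5, 54.5 and 46.5 (-2.82 ± 0.39, adjusted p = 0.000198). Chil3, a chitinase-like protein that may share reads with Chil4, was opposed: 2021, 2357 and 2337 became 4697, 4398 and 4297 in GMP, and 900, 1340 and 946 became 378, 403 and 431 in monocytes (-2.37 ± 0.20). The genes of this list summed to between 31200 and 43420 FPKM in GMP after PBS and between 65330 and 67380 after OMV-SIRP, and in monocytes to between 4538 and 9997 and between 3253 and 3696. Whether the GMP libraries held more maturing neutrophils was not tested.

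Most genes of the eosinophil and B lineage lists fell with OMV-SIRP in both populations. Of 10 eosinophil genes 9 fell in GMP and 8 in monocytes, and their sum fell from between 3992 and 5221 FPKM to between 2661 and 2975 in GMP and from between 104 and 219 to between 27.3 and 30.9 in monocytes. Their interaction was higher for 3 and lower for 1, Prg2 (-1.55), with all libraries and with total-read scaling (median -0.05 and 0.17). Alox15, a lipoxygenase, fell from 75.7, 78.8 and 79.8 to 9.22, 7.63 and 8.61 in GMP and from 8.56, 6.34 and 8.85 to 1.24, 1.42 and 1.61 in monocytes (interaction 1.19 ± 0.15). Of 11 B lineage genes 10 fell in GMP and 9 in monocytes, where Cd79a, a chain of the B cell receptor complex, went from 6.66, 11.2 and 6.49 to 0.739, 0.617 and 0.525 (-1.31 ± 0.25). In this list 4 interactions were lower and 1, of Dntt (0.60), higher, with a median of 0.15. Interactions of genes near 0 in a population turned or failed on other scales. Il5ra (1.01) and Cd200r3 (0.85), both under 0.5 FPKM in every monocyte library, were at -0.41 and -1.11 on recovered reads with limma voom, neither past the threshold (adjusted p = 0.803 and 0.324). Ly6d (-1.41) was not past the threshold with a pseudocount of 0.1 (adjusted p = 0.212). Of 10 mast cell and basophil genes 9 fell in GMP and 3 in monocytes. Their median interaction was 0.04. Fcer1a (0.87) and Cd200r3 were the 2 higher members. The histamine-making enzyme Hdc (-0.92 ± 0.13) was the 1 lower member, and its GMP change was not past the threshold. Higher members became 4, beside Hdc as the 1 lower, when monocyte PBS replicate 2 was left out, and likewise when libraries were scaled by total reads. Other lineages varied. The megakaryocyte and platelet genes summed to between 53.7 and 57.2 FPKM in GMP after PBS and between 69.3 and 75.7 after OMV-SIRP. In monocytes they summed to 11.6, 13.61 and 10.53 after PBS and 13.29, 13.35 and 12.11 after OMV-SIRP, with overlap only through PBS replicate 2. The sums of dendritic cell genes overlapped in GMP. In monocytes they fell from between 136 and 353 to between 81.4 and 99.1. The sums of T and NK cell genes overlapped in both populations.

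Monocyte and macrophage genes included both higher and lower interactions. The monocyte list held 7 higher and 4 lower of 25 (median 0.28), the macrophage identity list 5 higher and 2 lower of 14 (median 0.51). Without monocyte PBS replicate 2 these were 11 and 6, and 8 and 2 (12.7% of genes tested were then higher), and with total-read scaling 10 and 2, and 8 and 1. Cx3cr1, the fractalkine receptor of patrolling monocytes (chr9:119901616-120069879), fell in GMP from 11.6, 11.2 and 10 FPKM to 8.75, 8.97 and 8.35. In monocytes it rose from 42.3, 31.8 and 43.1 to 68.1, 66.5 and 76.6 (interaction 1.14 ± 0.15, adjusted p = 9.23e-05). The receptor Csf1r (0.63), the factor Klf4 (0.91) and Ccr2 (0.48) had higher interactions without a monocyte change past the threshold. Fn1 (-1.46), Cd14 (-0.74) and Ctss had lower ones, and the Ctss interaction (-0.87 ± 0.23) was lost in a fit of the 12 libraries alone (adjusted p = 0.063). That of Fn1 was not past the threshold with total-read scaling (-1.20, adjusted p = 0.0587).

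Mrc1, the mannose receptor of tissue and alternatively activated macrophages (chr2:14229392-14332057), had the highest interaction of the named genes. Monocytes rose from 1.01, 0.491 and 1.19 FPKM to 5.64, 5.30 and 4.63, without overlap. GMP held 0.869, 0.674 and 0.855 after PBS and 0.550, 0.572 and 0.719 after OMV-SIRP, a change not past the threshold. The interaction was 1.88 ± 0.18 (adjusted p = 6.35e-06). Cd163 (0.90) and Axl (0.95) rose in monocytes as well, and Vcam1, an adhesion molecule of marrow and spleen macrophages, fell there from 1.35, 1.28 and 1.51 to 0.229, 0.234 and 0.193 while GMP stayed between 25.1 and 27.0 (-0.93 ± 0.09). The macrophage list summed in monocytes to 654, 1206 and 639 FPKM after PBS and to 777, 813 and 877 after OMV-SIRP. These sums overlapped only through PBS replicate 2. In GMP the list summed to between 170 and 194 after PBS and between 231 and 243 after OMV-SIRP.

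Among genes of macrophage activation, those of the inflammatory and of the alternative kind both split. The inflammatory list held 4 higher and 10 lower of 28 (median -0.22), against 8 higher and 9 lower with total-read scaling. Tnf was opposed: it rose in GMP from 12.8, 13.7 and 12.7 FPKM to 16.1, 16.3 and 15.7 and fell in monocytes from 117, 165 and 112 to 46, 53.7 and 48.7 (interaction -1.65 ± 0.17, adjusted p = 1.37e-05). Il1b (-1.45), Il1a (-1.16) and the feedback inhibitors Nfkbiz (-1.19), Tnfaip3 (-1.05) and Nfkbia (-0.77) were lower, and the last 4 fell in monocytes. With total-read scaling the Tnfaip3 interaction was not past the threshold (-0.79, adjusted p = 0.0562). Cd86, a costimulatory ligand for T cells, fell in monocytes from 23.1, 25.9 and 25.6 to 8.76, 9.48 and 8.54 and stood at 0.5 to 0.901 in GMP (-1.20 ± 0.13). Icam1 (0.84), an adhesion ligand, rose in monocytes and fell in GMP. Of 14 alternative activation genes 4 were higher, Mrc1, Ccl22, Trem2 and Stab1, and 3 lower, Arg1, Chil3 and Cd36 (7 and 3 with total-read scaling).

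Chemokines and their receptors included both directions. Of 17 chemokine genes 5 were lower and 1, Ccl22 (1.20 ± 0.15), higher. Of 10 receptors 5 were lower and 3 higher. Among all genes tested 10.7% were lower and 7.09% higher. The receptor counts were 4 and 3 with total-read scaling. The chemokine split varied: 4 were higher and 5 lower with total-read scaling, and 4 and 5 of 15 without monocyte PBS replicate 2, where the median moved from -0.26 to 0.30. Cxcl1, which draws neutrophils, fell in monocytes from 14, 16.7 and 13 FPKM to 6.67, 7.04 and 6.59 and was at most 0.261 in GMP (-1.20 ± 0.15), so its interaction ranged from -0.77 with a pseudocount of 5 to -3.37 on recovered reads. Cxcl10 (-1.45) and Cxcl2 (-1.33) were lower as well. Ccl22 was low in every library. GMP held 1.85, 1.19 and 1.74 FPKM after PBS and 0.921, 1.00 and 0.919 after OMV-SIRP. Monocytes held 0.205, 0.0328 and 0.180 after PBS and 0.927, 0.894 and 1.09 after OMV-SIRP. Cxcr4, the receptor that holds cells in the marrow, fell in monocytes from 115, 108 and 110 to 73.5, 74.5 and 62.5, while GMP held 119, 125 and 134 after PBS and 143, 146 and 138 after OMV-SIRP. Its interaction was -0.84 ± 0.12 (adjusted p = 0.000187).

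Sirpa rose and Cd47 fell in monocytes, while in GMP Sirpa fell and Cd47 had no change past the threshold. Sirpa (chr2:129592835-129632228) stood at 91.7, 90.1 and 91.7 FPKM in GMP after PBS and at 77.5, 82.4 and 77.8 after OMV-SIRP. In monocytes it rose from 173, 166 and 176 to 241, 226 and 234, with no overlap in either population. The GMP fall was -0.20 ± 0.05, the monocyte rise 0.44 ± 0.10 and the interaction 0.64 ± 0.10 (adjusted p = 0.000452). Cd47 (chr16:49800533-49915010) held 116, 119 and 117 in GMP after PBS and 109, 110 and 104 after OMV-SIRP, and fell in monocytes from 92, 87.9 and 95 to 64, 68 and 62.7. Its interaction was -0.37 ± 0.09 (adjusted p = 0.00951), but -0.10 with total-read scaling (adjusted p = 0.62), and it was past the threshold neither with upper quartile scaling nor in a fit of the 12 libraries (adjusted p = 0.168 and 0.0586). Of 18 genes of this axis and of inhibitory receptors and their relatives 6 were higher and 3 lower, and 9 and none with total-read scaling. Lilra6 (1.17 ± 0.18) and Pilrb1 (1.12 ± 0.15), which have near-identical relatives and are not inhibitory receptors themselves, led the higher ones. The inhibitory receptors Pirb (-0.57) and Clec4a2 (-0.71) were lower.

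Immediate-early genes, which answer a stimulus within minutes, held 6 higher and 2 lower members of 19 (median 0.21), 8 and 3 without monocyte PBS replicate 2, and 8 and none with total-read scaling. Fos, a subunit of AP-1 (chr12:85473890-85477273), fell in GMP from 179, 166 and 157 FPKM to 129, 138 and 133. It rose in monocytes from 206, 204 and 204 to 532, 587 and 508, so that every treated monocyte library lay above all others. The interaction was 1.72 ± 0.12 (adjusted p = 2.82e-07). The phosphatase gene Dusp1 rose in monocytes from 103, 95.8 and 97 to 144, 165 and 149 (0.78 ± 0.10), and Jun (0.83), Btg2 (0.61) and Egr1 (0.60) rose there too. Egr3 (-1.12) and Atf3 (-0.50) fell.

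The other high interactions came from genes of diverse roles. Mmp14, a membrane-bound collagenase, rose in both populations, from 1.79, 1.58 and 1.68 FPKM to 3.33, 2.98 and 2.99 in GMP and from 5.22, 3.12 and 4.56 to 22.8, 18.9 and 21.6 in monocytes (1.47 ± 0.17). Csf2rb2, which shares reads with Csf2rb, fell in GMP from 53.2, 44.2 and 42.3 to 23.5, 22.4 and 23 and did not change past the threshold in monocytes (1.45 ± 0.22). Serpinb2, an inhibitor of plasminogen activators, fell in GMP from 15.1, 17.5 and 15.3 to 2.82, 2.84 and 2.91, and in monocytes from at most 1.5 to at most 0.598. Its interaction of 1.39 ± 0.14 was not past the threshold with a pseudocount of 0.1 (0.82, adjusted p = 0.102) or on recovered reads (0.62, adjusted p = 0.247). The adhesion chain Itgal (1.28, and 1.03 without monocyte PBS replicate 2) and the GTPase gene Rhob (1.25 and 1.35) fell in GMP and rose in monocytes. So did the exchange factor gene Arhgef18 (1.17 and 0.98) and the semaphorin receptor Plxnd1 (1.32 and 0.99). Slfn1, of the schlafen family, whose relatives are alike in sequence, did the reverse: it rose in GMP from 15.1, 15.9 and 13.2 to 23.4, 23.2 and 23.3 and fell in monocytes from 65, 101 and 67.7 to 18.6, 23.1 and 18 (-2.53 ± 0.19). Mmp12, the elastase of macrophages, rose in GMP from at most 0.195 to between 2.22 and 2.68, while monocytes stayed between 1.20 and 1.68 (-1.45 ± 0.11, and -0.49 with a pseudocount of 5).

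The interactions of Tlr9, the receptor for bacterial DNA, and Saa3, an acute-phase protein, lay close to the threshold with all libraries and moved in size without monocyte PBS replicate 2. Tlr9 fell in GMP from 3.64, 2.80 and 2.91 FPKM to 1.60, 1.61 and 1.61, and in monocytes held 8.04, 1.29 and 7.45 after PBS and 12.4, 9.72 and 13 after OMV-SIRP. Its interaction was 1.83 ± 0.50 with all libraries (adjusted p = 0.0212) and 1.18 without replicate 2 (adjusted p = 5.43e-05), and the call was lost without GMP PBS replicate 1 (adjusted p = 0.0509) or monocyte OMV-SIRP replicate 3 (adjusted p = 0.0504). The Tlr9 call was also lost in a fit of the 12 libraries alone, with no filter on low values and with a minimum change of 0.5 (treat). Saa3 held 18, 71.5 and 19.2 in monocytes after PBS and 93.9, 111 and 112 after OMV-SIRP, and between 11.8 and 20.1 in GMP. Its interaction was 1.65 ± 0.54 (adjusted p = 0.0475), 2.28 without replicate 2 (adjusted p = 6.15e-05), and not past the threshold when any of 10 other libraries was left out (adjusted p up to 0.108). The Saa3 call was also lost under the same 3 settings as that of Tlr9, with a pseudocount of 0.1 and with the replicate number as a block. Lpar5, a lysophosphatidic acid receptor, rose in monocytes from 5.89, 1.96 and 6.60 to 15, 14.4 and 14.3, with no GMP change past the threshold. Its interaction was 1.65 ± 0.35 with all libraries and 1.22 without replicate 2. Of 20 Toll-like receptors and partners, Tlr9 and Tlr1 (0.68) were higher and Cd14 lower, a share below the 17.8% of all genes. These were 5 higher and 4 lower without monocyte PBS replicate 2, and 5 and 1 with total-read scaling.

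None of 22 ribosomal protein, 13 mitochondrially encoded and 21 nuclear respiratory chain genes had an interaction past the threshold with limma on log2(FPKM + 1) or with limma voom on recovered reads, and 1 of them, of the respiratory chain, had an unadjusted p under 0.05. The ribosomal median of -0.53 became -0.01 without monocyte PBS replicate 2, where 4 respiratory chain genes had a higher interaction. With total-read scaling 4 mitochondrially encoded and 3 respiratory chain genes had a higher one. Cholesterol synthesis genes held 8 lower and 1 higher of 18 (median -0.30), 13 and 1 without that library and 3 and 1 with total-read scaling. Among them Msmo1 (-0.78) and the feedback sensor Insig1 (-0.68) fell in monocytes, where Insig1 went from 45.7, 38.9 and 46.5 FPKM to 28.9, 28.3 and 25.3, against 30.5 to 34.4 in all GMP libraries. The Insig1 interaction was not past the threshold with total-read scaling (-0.42, adjusted p = 0.0792). Of 15 targets of the amino acid stress factor ATF4 5 were lower and 1 higher, among them Mthfd2 of folate metabolism (-0.78), and 1 was lower and 3 higher with total-read scaling.

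**Figure D4:**
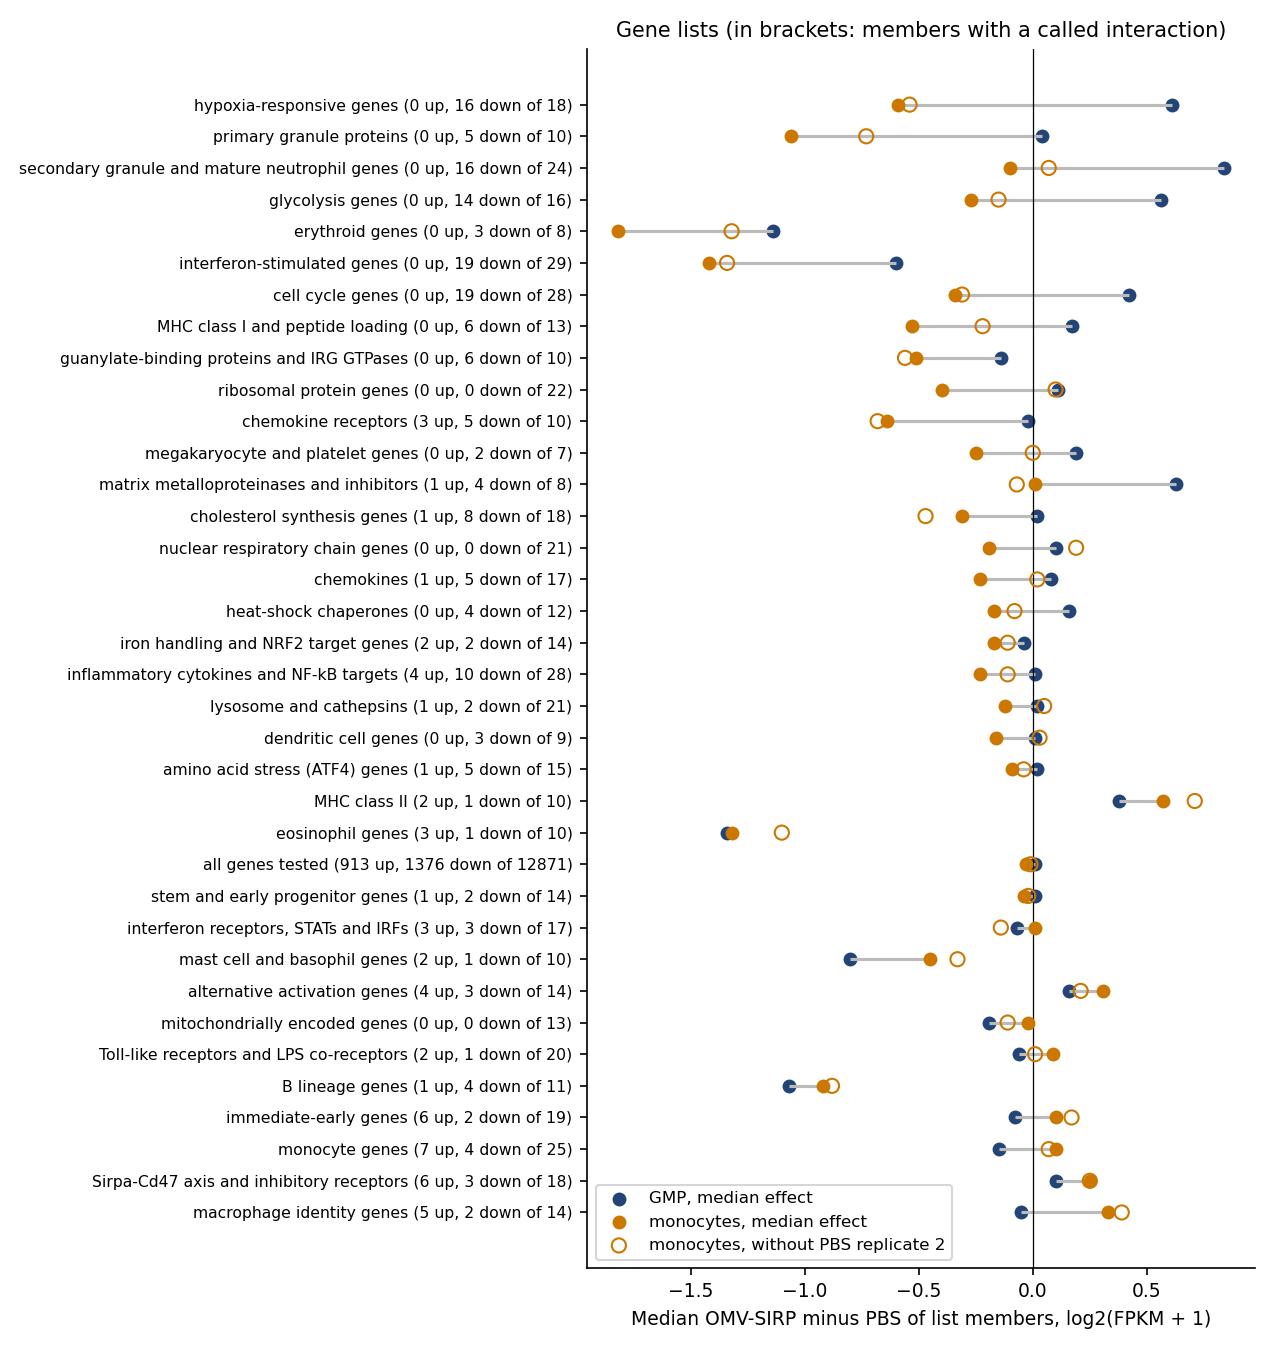
For each gene list, the median change of its tested members with OMV-SIRP, log2(FPKM + 1), in GMP (blue) and in monocytes with all libraries (filled orange) and without PBS replicate 2 (open orange); the brackets count members with a higher (up) or lower (down) interaction. The hypoxia, glycolysis and cell cycle lists have GMP medians of 0.42 to 0.61 and monocyte medians below 0, while the interferon list is below 0 in both.

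**Figure D5:**
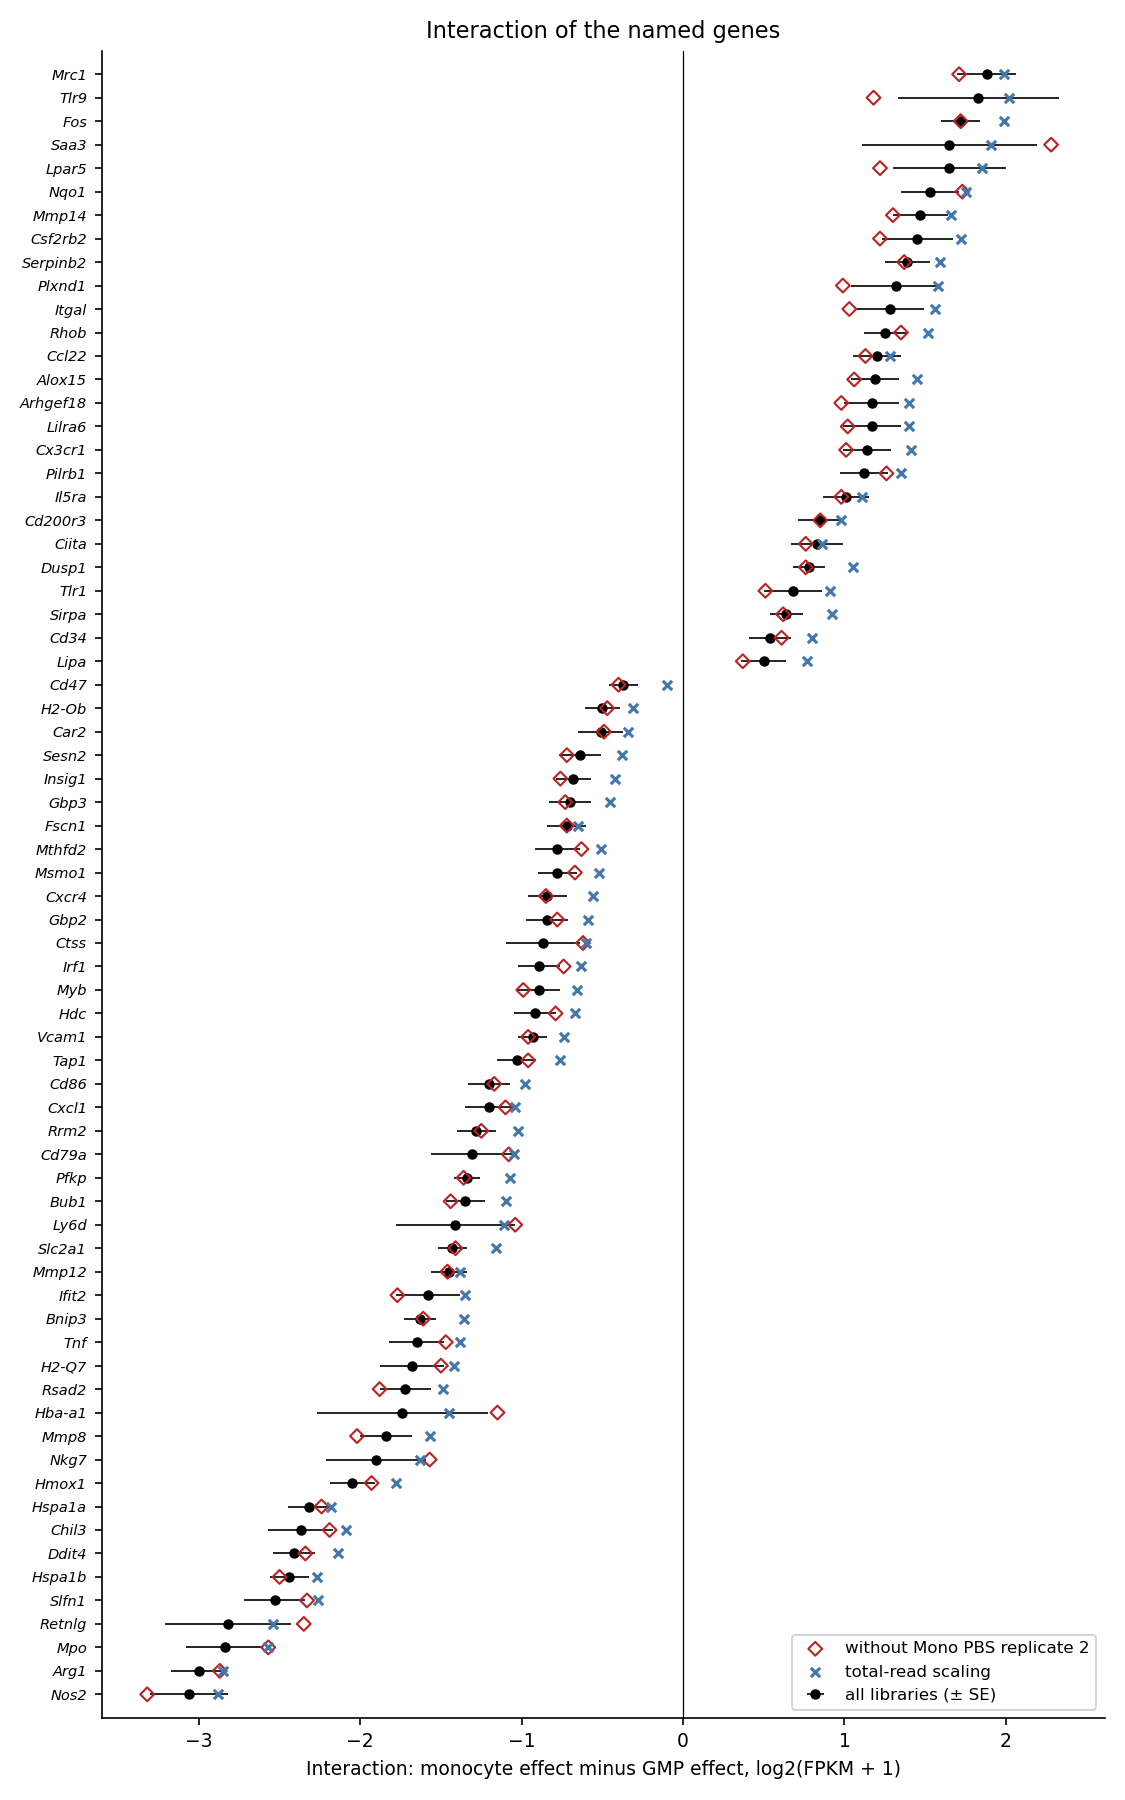
Interaction of each named gene reported here, log2(FPKM + 1), with its standard error (black), without monocyte PBS replicate 2 (red) and with total-read scaling (blue). All genes keep their side of 0 under these settings, from -3.06 for Nos2 to 1.88 for Mrc1 with all libraries.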

How the data were processed

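RNA from bone marrow GMP and monocytes was sequenced as messenger RNA, with libraries from a NEBNext kit per the labels' protocols. The authors deposited FPKM in 1 table for the 18 GMP and monocyte libraries, with 56026 gene models. Per the submitters' processing notes, HISAT2 2.0.5, featureCounts 1.5.0-p3 and StringTie were used with build GRCm38; which step each did, and how, is not given in the sources used here. FPKM times gene length came out as a whole number of reads (in steps of 1 read) for 99.995% to 100% of values of a library (tolerance 0.05 reads), which gave the depths. The FPKM carry a scaling between libraries, so total-read scaling was tried as an alternative.

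Group and replicate came from the sample titles. Genes with FPKM of at least 1 in at least 3 of the 12 libraries were tested on log2(FPKM + 1), which understates changes of low genes. The interaction was fitted with limma 3.58.1 (statmod 1.5.0, R 4.3.3; lmFit and eBayes with trend and robust) over all 18 libraries, which share 1 estimate of the spread, and each population's change over its own 9. P-values were adjusted by Benjamini-Hochberg over all genes tested, with a threshold of 0.05. The code was tested on simulated data whose spread was taken from the groups other than monocyte PBS. That test therefore does not show how calls behave with the wider spread of the monocyte PBS group.

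Named genes were the 8 highest and 8 lowest interactions past the threshold and the 6 highest and 6 lowest opposed ones, all protein-coding with a mean FPKM of at least 5. To these were added the 2 members with the lowest adjusted p of each list with at least 3 called members, and Arg1, Nos2, Mrc1, Cd86, Cd47 and Sirpa, which gave 73 genes, 3 of which are not reported here. Other list members are given by their values. The comparison, the 36 gene lists and these rules were chosen with earlier results of these data known. A list is described by its counts and median, to be set beside the shares and median given for all genes tested. For a symbol with several gene models the one with the highest mean FPKM was used. Positions are those of the deposited table, and promoter sequences are from RefSeq.

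Alternatives were other pseudocounts (0.1 and 5), filters and scalings, limma voom on recovered reads, library weights, a fit without the OMV-SIRP-G libraries, the replicate number as a block, a minimum change of 0.5 with treat, and leaving out each library in turn. The 2 settings that combine leaving out monocyte PBS replicate 2 with total-read scaling or with the smaller fit were chosen after the data were seen. No libraries were alike enough to be the same library deposited again.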

Additional observations from a re-analysis of the deposited data

Results flagged for a closer look

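The responses of monocytes and GMP to OMV-SIRP differed for 2289 genes by the interaction test itself, and the named genes among them that are reported are given here with that interaction (log2(FPKM + 1), monocyte change less GMP change). None of them was picked out for a library far from the others, since groups of 3 are too small for that.

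The interaction was negative for the following genes, which compares the changes and says nothing of which population held more RNA. Of metabolism, stress and chaperones these were Arg1 (-3.0), Nos2 (-3.06), Hmox1 (-2.05), Ddit4 (-2.41), Bnip3 (-1.63), Slc2a1 (-1.43), Pfkp (-1.34), Hspa1a (-2.32), Hspa1b (-2.44), Msmo1 (-0.78), Insig1 (-0.68), Mthfd2 (-0.78) and Sesn2 (-0.64). Of interferon response and antigen presentation they were Rsad2 (-1.72), Ifit2 (-1.58), Irf1 (-0.89), Gbp2 (-0.84), Gbp3 (-0.70), Tap1 (-1.03), H2-Q7 (-1.68), H2-Ob (-0.50) and Slfn1 (-2.53). Of granules, neutrophils and other lineages they were Mpo (-2.84), Nkg7 (-1.90), Retnlg (-2.82), Chil3 (-2.37), Mmp8 (-1.84), Hdc (-0.92), Hba-a1 (-1.74), Car2 (-0.51), Cd79a (-1.31), Ly6d (-1.41) and Fscn1 (-0.72). Of inflammation, adhesion, lysosome and the cell cycle they were Tnf (-1.65), Cxcl1 (-1.20), Cxcr4 (-0.84), Cd86 (-1.20), Cd47 (-0.37), Vcam1 (-0.93), Ctss (-0.87), Mmp12 (-1.45), Myb (-0.89), Bub1 (-1.35) and Rrm2 (-1.28).

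The interaction was positive for the receptors Tlr9 (1.83), Tlr1 (0.68), Lpar5 (1.65), Csf2rb2 (1.45), Cx3cr1 (1.14), Mrc1 (1.88), Sirpa (0.64), Lilra6 (1.17), Pilrb1 (1.12), Il5ra (1.01), Cd200r3 (0.85), Plxnd1 (1.32), Itgal (1.28) and Cd34 (0.54). It was positive as well for the regulators Fos (1.72), Dusp1 (0.78), Ciita (0.83), Rhob (1.25) and Arhgef18 (1.17), and for Saa3 (1.65), Serpinb2 (1.39), Mmp14 (1.47), Ccl22 (1.20), Alox15 (1.19), Nqo1 (1.53) and Lipa (0.50). Serpinb2 and Alox15 fell in both populations, by less in monocytes.

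The call of Car2 was lost under 4 settings of pseudocount, filter or scaling and without any of 5 libraries, and that of Lipa without any of 6 libraries. Fscn1 was not past the threshold on recovered reads with limma voom (adjusted p = 0.309), nor was Sesn2 with total-read scaling (-0.38, adjusted p = 0.121).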

How the results depend on the processing

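The count of interactions stayed within 1.5 times of 2289 under both pseudocounts, both filters, both scalings, voom and the replicate block, and moved under 3 other settings: 1411 genes in a fit without the OMV-SIRP-G libraries, 5608 with library weights and 219 with a minimum change of 0.5 (treat). In the same order, the monocyte effect (1092 genes) moved to 275, 4657 and 96 genes, and the opposed genes (230) to 37, 881 and 1. The GMP effect (2244) moved to 124 with treat. The smaller fit has fewer residual degrees of freedom, and the cause of the change with library weights was not tested.

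Leaving out each library in turn gave 1746 to 3964 interactions, 1381 to 2138 genes for GMP, 382 to 3626 for monocytes and 74 to 567 opposed genes, with the highest interaction, monocyte and opposed counts all without monocyte PBS replicate 2. Each of the 3 monocyte OMV-SIRP libraries took the monocyte count to between 382 and 453 when left out. Chosen after the data were seen, leaving out that PBS library with total-read scaling gave 4367 interactions, 3742 monocyte genes and 630 opposed genes, and leaving it out in the fit without OMV-SIRP-G gave 3649, 3705 and 418. With upper quartile scaling 58.8% of 2378 calls were higher.

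Whether equal replicate numbers pair the libraries could not be decided. Of 18 correlations between same-numbered libraries' deviations from their group means, 9 were over 0.1 (range -0.312 to 0.416). Libraries of different numbers are not set beside them, so these values neither show nor exclude a pairing. With the replicate number as a block there were 2109 interactions, 2071 of them shared with the main 2289, 1947 genes for GMP, 553 for monocytes and 100 opposed genes, and Saa3 alone of the 73 named genes was not past the threshold.

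Named genes with library weights all stayed past the threshold. With voom Il5ra (-0.41) and Cd200r3 (-1.11) changed sign. With treat 35 of 73 were not past the threshold, with a pseudocount of 0.1 7, and with total-read scaling 6. The cause of these changes was not tested. With 3 libraries a group and a monocyte PBS group this uneven, small monocyte changes may not pass the threshold, and changes of genes under 1 FPKM depend on the pseudocount.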

Other observations

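Below the 8 extreme genes in each direction, the genes ranked 9 to 15 by the same criteria, looked at after the values were seen, included 4 opposed genes not described above. Hcar2, the receptor for niacin and beta-hydroxybutyrate, went from 10.4 ± 0.605 (mean FPKM ± SD, n = 3) to 25.4 ± 1.43 in GMP and from 39.9 ± 5.43 to 19.1 ± 0.708 in monocytes (interaction -2.23 ± 0.12). Il1r2, a decoy receptor for interleukin 1, went from 19.8 ± 1.49 to 41.1 ± 1.37 and from 16.4 ± 5.86 to 6.54 ± 0.822 (-2.18 ± 0.24), so that monocytes moved from near the GMP level to far below it. Gpat3, an enzyme of triglyceride synthesis, had an interaction of -2.20 ± 0.17, and Selenbp1, a selenium-binding protein, of -2.07 ± 0.24. Tgm1, a transglutaminase, fell in monocytes alone, from 49.1 ± 6.01 to 9.24 ± 0.121, and stood at 4.31 ± 0.222 and 4.20 ± 0.161 in GMP (-2.25 ± 0.11).

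In the higher direction, Gpr84, a receptor for medium-chain fatty acids, went from 2.17 ± 0.595 to 6.90 ± 0.416 in monocytes and from 6.21 ± 0.195 to 6.56 ± 0.711 in GMP (1.27 ± 0.23), so that the populations lay close together after OMV-SIRP. Cluh, a binder of messenger RNAs for mitochondrial proteins, had an interaction of 1.29 ± 0.18 and rose in monocytes. Fam20c, a kinase of secreted proteins, had 1.23 ± 0.15, and the amino acid carrier Slc7a8 had 1.23 ± 0.21. The ubiquitin ligase Rnf144b fell in GMP from 10 ± 0.444 to 4.88 ± 0.352, with 2.59 ± 0.422 and 3.48 ± 0.624 in monocytes (1.22 ± 0.15). All of these kept a limma adjusted p under 0.05 without monocyte PBS replicate 2, with interactions of -2.21 to -1.78 for the 5 lower genes and 0.99 to 1.30 for the 5 higher ones.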
